A study of Mus musculus with 6 samples.

Results

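The Notch pathway passes signals between touching cells. A ligand of the Delta-like or Jagged family on one cell pulls on a Notch receptor of its neighbour, the receptor is cut by an ADAM protease and then by the gamma-secretase complex, and its freed intracellular part enters the nucleus, where it joins the DNA-binding protein RBPJ and Mastermind co-activators on target genes. Among these targets are the Hey genes, which code for transcriptional repressors. In the embryonic heart the pathway is known for its part in trabeculation, in the endothelial-to-mesenchymal transition that forms the valve cushions, in arterial identity and in the patterning of chamber myocardium.

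The description here covers 10 genes chosen by symbol from the 32285 genes of the series. They are 3 receptors (Notch1, Notch2, Notch3), 4 ligands (Dll1, Dll4, Jag1, Jag2) and 3 targets (Hey1, Hey2, Heyl). All 10 were detected.

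Single-cell RNA was measured in the cardiogenic region of E10.5 mouse embryos (strain C57BL/6, wild type), the age being counted in days from the mating plug. Of the 6 samples, 3 came from normal-glycemic females pretreated with vehicle and 3 from hyperglycemic females pretreated with streptozotocin, a toxin of insulin-producing beta cells, and all dams were mated with normal-glycemic males. The labels name non-cardiac mesoderm, ectoderm and endoderm as further lineages in the tissue, and their description line names a chromatin assay although the kit, titles and counts are those of RNA. All cells stand in 1 pooled matrix whose barcodes carry a library number from 1 to 6. No file used here pairs a library with a sample, so the maternal treatments could not be compared, and the matrix counted as 1 sample without any test between conditions.

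Of 53362 barcodes, 35962 (67.4%) had at least 2500 detected genes and at most 10% mitochondrial counts and were retained, 4903 to 7136 per library. Their median depth was 30533 to 35634 unique molecular identifiers (UMIs, 1 per captured RNA molecule) per cell in the 6 libraries. Of the retained cells, 2890 (8.04%) carried a barcode sequence that also occurred in another library. A cell was placed in a class when it had the largest share of that class's marker genes on, none of the markers being one of the 10 genes. This placed 20298 cells (56.4%) in a class, and 15 classes held at least 50 cells. Class names carry "-like" in the figures and are shortened below, since they rest on markers and not on an annotation by the authors. The unclassified 15664 cells were shallower, with a median of 26513 UMIs against 38622 in the classified ones.

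Levels are given as counts per 1e6 UMIs (CPM), with the UMIs summed over the cells of a class, and carry 95% exact Poisson intervals that cover counting error only. Levels are compared between classes for 1 gene at a time and not between genes. The unclassified cells held Notch2 at 44.1, Notch3 at 43.3, Jag1 at 29.9 and Dll4 at 0.632 CPM. Erythroid cells, taken here to lack these genes, served as a background. Their own markers, globin genes among them, had a summed median of 359024 CPM, which lowers the CPM of all other RNA. The background in other classes may therefore be higher. Levels of the members in erythroid cells ran from 0.021 CPM for Dll4 to 2.61 CPM for Notch2. After each cell was thinned to 10000 UMIs, Notch2 had a UMI in 2.79% of erythroid cells and in 41.8% of crest and glia cells. Median depth before thinning was 64496.5 UMIs in the erythroid cells and 37274 in the crest and glia cells.

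**Figure D1:**
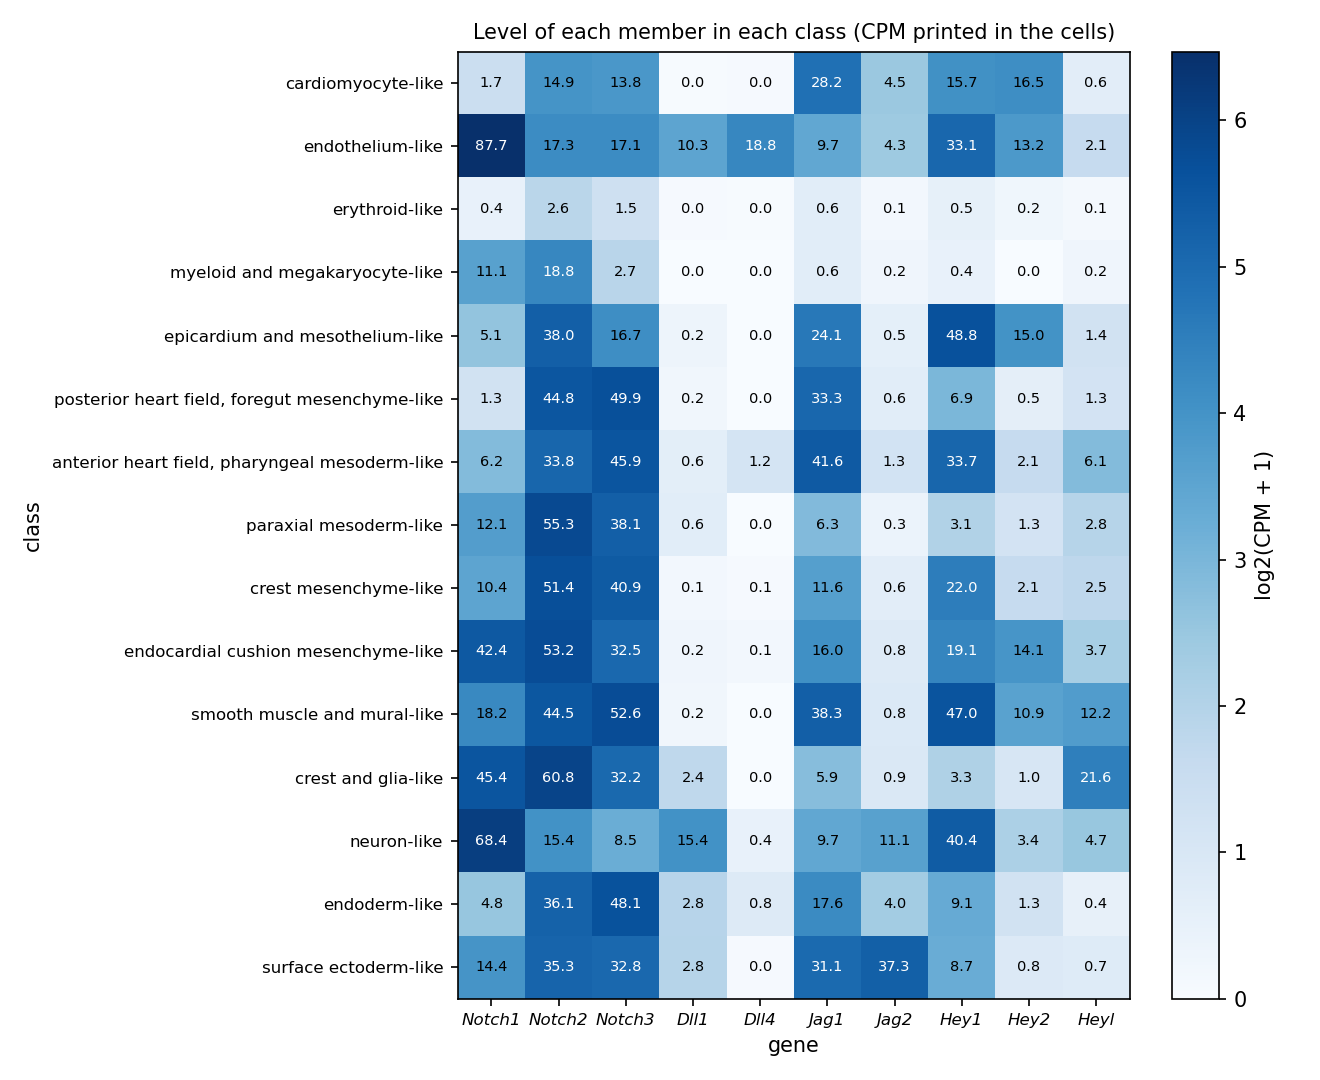
Level of each of the 10 genes (columns) in each of the 15 described classes (rows), with the CPM printed in the cells and the colour on a log2(CPM + 1) scale. Notch2 and Notch3 were spread over many classes, while Dll4 stood at 18.8 CPM in endothelium and at 1.23 CPM or less in all others.

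The reference promoters are shown first for 2 members, because Hey2 had the sharpest difference between heart chambers and Dll4 the narrowest class distribution. RBPJ binds a core of the letters TGGGAA. The windows span 250 bases before to 50 bases after an annotated start (RefSeq, GRCm38.p6, corresponding to mm10, the build named in the submitters' processing notes), were searched for TGGGAA on both strands, and matched 8 of the 10 members in 9 windows. Hey1 and Heyl had no matched window. The 2 sequences below are written 5′ to 3′ on the gene's strand, with each core match in capitals.
Hey2, chr10:30842781-30843033, minus strand: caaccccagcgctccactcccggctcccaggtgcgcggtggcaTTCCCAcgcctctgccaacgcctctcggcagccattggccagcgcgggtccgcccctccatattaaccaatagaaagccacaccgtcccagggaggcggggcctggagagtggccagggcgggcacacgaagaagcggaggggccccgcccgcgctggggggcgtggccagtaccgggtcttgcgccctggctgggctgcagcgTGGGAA
Dll4, chr2:119325534-119325783, plus strand: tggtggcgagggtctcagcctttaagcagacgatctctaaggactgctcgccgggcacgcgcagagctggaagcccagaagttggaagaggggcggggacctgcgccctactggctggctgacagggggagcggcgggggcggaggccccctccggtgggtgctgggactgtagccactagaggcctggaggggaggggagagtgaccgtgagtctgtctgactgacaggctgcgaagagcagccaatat
Hey2 was the member with a core match, and it had 2. The first match starts 207 bases before the start site on the opposite strand, and the second starts 3 bases before it and spans it. Both also fit the longer form GTGGGAA. Of 32851 promoter windows of the same length, 25.6% held the core and 6.38% the longer form. A match describes letters in a window and does not show a binding site.

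Notch1, the receptor known for its role in endocardium and arteries, was highest in endothelium at 87.7 CPM (interval 85.7 to 89.8). In libraries 1 to 6 its endothelial level was 86.6, 86.8, 92.2, 85.6, 85.4 and 93.2 CPM. Neurons came next at 68.4 CPM, and endothelium was higher in 5 of the 5 libraries with enough neurons (at least 10 cells). Crest and glia cells, at 45.4 CPM, and endocardial cushion mesenchyme, at 42.4 CPM, followed, with a ratio of 1.07 between them and an interval of 0.968 to 1.19. Cardiomyocytes had 1.70 CPM, and posterior second heart field and foregut mesenchyme 1.35 CPM. Every library of endothelium lay far above both.

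Notch2, a receptor used in crest-derived mesenchyme and smooth muscle, was found at 10 CPM or more in 14 of the 15 classes. Its highest level was 60.8 CPM in crest and glia cells, followed by paraxial mesoderm (55.3 CPM), cushion mesenchyme (53.2 CPM) and crest mesenchyme (51.4 CPM). Between neighbours in this order the ratios were 1.10, 1.04 and 1.03, each with an interval that held 1. Endothelium had 17.3 CPM and cardiomyocytes 14.9 CPM. Endothelium was lower than the rest of the classified cells in 6 of 6 libraries (ratio 0.509).

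Notch3, the receptor known from vascular smooth muscle and pericytes, was highest in the smooth muscle and mural class at 52.6 CPM. Its libraries 1, 2, 4, 5 and 6 gave 46.5, 57.7, 44.3, 53.5 and 63.6 CPM, and library 3 had under 10 such cells. Posterior second heart field and foregut mesenchyme (49.9 CPM), endoderm (48.1 CPM) and anterior second heart field and pharyngeal mesoderm (45.9 CPM) stood beside it, and no step between these 4 exceeded its counting interval. Against all other classified cells the mural ratio was 1.90. The mural class is a thin one: of its 163 cells, 118 led the next marker list by less than 0.2, and the pericyte markers Kcnj8 and Abcc9 were at 1.70 and 3.05 CPM. Removing cells with so small a lead gave a ratio of 2.36, from fewer cells than the 50 asked of a described class. The same removal took mural Jag1 from 38.3 to 32.6 CPM, and neurons replaced mural cells as the class next to epicardium for Hey1. The part of the class definition in these results was not tested further.

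The receptors and ligands were then compared between endocardium and the valve cushions, as classes of cells and not as a course over time. Endocardial-like cells (1224) were compared with endocardial cushion mesenchyme (661), the cell type that arises from endocardium by an endothelial-to-mesenchymal transition. Notch1 was lower in cushion mesenchyme, at 42.4 against 97.9 CPM, in 6 of 6 libraries. Notch2 was higher, at 53.2 against 22.2 CPM (ratio 2.40, interval 2.21 to 2.60), and Notch3 was higher at 32.5 against 20.6 CPM, both in 6 of 6 libraries. Crest mesenchyme had 51.4 CPM of Notch2 and 40.9 CPM of Notch3, so these higher levels are not particular to cushion mesenchyme. Dll1 gave 5 UMIs in cushion mesenchyme against 633 in endocardial-like cells, and Dll4 gave 3 against 809. Jag1 was 1.78 times higher in cushion mesenchyme, at 16.0 against 9.01 CPM, in 6 of 6 libraries. Hey1 (19.1 against 25.4 CPM) and Hey2 (14.1 against 16.7 CPM) were lower by less than 1.5 times, in 5 of 6 libraries each.

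**Figure D2:**
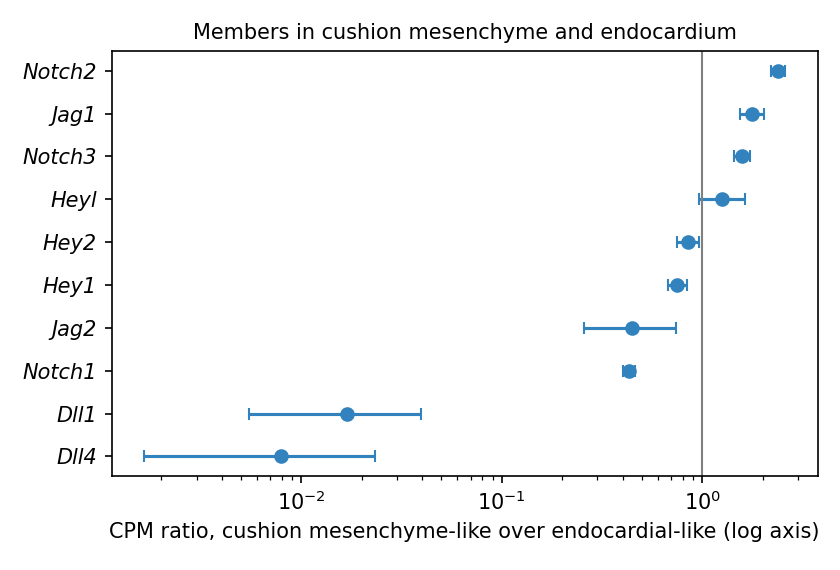
Ratio of the CPM in endocardial cushion mesenchyme-like cells to that in endocardial-like cells for each of the 10 genes on a log axis, with 95% intervals for counting error and a line at 1. Dll1 and Dll4 lie far to the left, while Notch2, Jag1 and Notch3 lie to the right of the line.

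A difference between classes was called at a ratio of at least 2 with at least 10 CPM in the higher class. By this rule 1 of the 8 members that reached 10 CPM, Notch2, was higher in cushion mesenchyme, against 7.35% of all 9192 genes compared. Notch1, Dll1 and Dll4 were higher in endocardial-like cells, against 5.47% of all genes. The marker lists of the cushion and endocardial gates share Tbx20, Hapln1 and Gata4. The cushion list also shares Twist1 and Msx1 with the crest mesenchyme list. Of the 661 cushion cells, 164 led the next list by less than 0.2. Cdh5, a junction protein of endothelium, was at 11.6 CPM in cushion mesenchyme and 261 CPM in endocardial-like cells. It is itself a marker in the endothelium list, so the gate favours this difference.

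Among the ligands, Dll4, known from arteries and sprouting vessels, was the narrowest. It reached 18.8 CPM in endothelium, with 18.4, 24.0, 17.5, 13.7, 17.0 and 18.4 CPM in libraries 1 to 6. The next class, anterior second heart field and pharyngeal mesoderm, had 1.23 CPM (ratio 15.3, interval 11.9 to 20.1), and endothelium was higher in 6 of 6 libraries. In paraxial mesoderm, mural, crest and glia, myeloid and posterior second heart field cells no Dll4 UMI was counted. Posterior second heart field cells thereby had an upper limit of 0.0673 CPM, set as 3 counts.

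Dll1, a ligand of neurogenesis and somites, was highest in neurons at 15.4 CPM, from 9.23 to 23.3 CPM over 5 libraries, or 11.4 times the level in all other classified cells. Endothelium followed at 10.3 CPM and was lower in 4 of those 5 libraries. Surface ectoderm and endoderm had 2.80 and 2.76 CPM. Paraxial mesoderm, from which somites form, had 4 UMIs of Dll1 in 197 cells. Cardiomyocytes had 3 UMIs in 3200 cells.

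Jag2, a ligand known from epithelia, was highest in surface ectoderm at 37.3 CPM. The libraries gave 41.7, 37.6, 39.8, 36.1, 32.0 and 36.2 CPM. Neurons were next at 11.1 CPM, so that surface ectoderm was 3.35 times higher (interval 2.67 to 4.27), in 5 of 5 libraries. Cardiomyocytes, endothelium and endoderm stood together at 4.54, 4.33 and 3.97 CPM.

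Jag1, a ligand needed in outflow tract, smooth muscle and second heart field, was broad, with 9 classes at 10 CPM or more. Anterior second heart field and pharyngeal mesoderm had 41.6 CPM, with a range of 38.3 to 48.4 CPM over 6 libraries, and mural cells followed at a ratio of 1.09 with an interval of 0.946 to 1.25. In posterior second heart field and foregut mesenchyme library 1 stood apart at 94.1 CPM, while the other 5 libraries lay between 22.1 and 40.8 CPM. Library 1 had 59 of the 1348 cells of that class. Endothelium, at 9.72 CPM, was among the lower classes.

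The Hey targets differed from one another. Hey1 was highest in epicardium and mesothelium at 48.8 CPM, from 45.8 to 51.4 CPM over 6 libraries, and mural cells (47.0 CPM) and neurons (40.4 CPM) followed in the order, each with an interval of the step that held 1. Hey2 had its highest level in cardiomyocytes at 16.5 CPM, and epicardium (15.0 CPM), cushion mesenchyme (14.1 CPM) and endothelium (13.2 CPM) lay close behind. Cardiomyocytes exceeded epicardium in 4 of 6 libraries, so the first place did not hold in every library. Heyl, the Hey gene known from vascular smooth muscle and peripheral nervous system, was highest in crest and glia cells at 21.6 CPM, between 16.0 and 32.5 CPM over 6 libraries. The mural class had 12.2 CPM of Heyl and exceeded the crest and glia class in 1 of 5 libraries.

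Read over all genes, 2 of the 10 members (Notch1 and Dll4) were highest in endothelium, where 6.93% of the 11927 genes at 10 CPM or more had their highest class, and the count was 4 after thinning to 5000 UMIs, with Hey1 and Hey2 added. In that single draw the leads of endothelium were small. Hey1 was at 45.2 against 44.0 CPM in epicardium, and Hey2 at 16.9 against 16.3 CPM in cushion mesenchyme. The highest class was at least 2 times the next for Dll4 and Jag2, a share near the 16.7% of all genes. For 5 members (Notch1, Dll1, Dll4, Jag2 and Heyl) the highest class was at least 4 times the other described classes together, against 25.5% of all genes. The highest class led its next class in every library compared for 3 members, Notch1, Dll4 and Jag2, against 44.7% of all genes. Without library 4 that count was 6, against 49.2% of 11942 genes. First places were not all stable. Under 14 alternatives, 6 members kept their highest class. Jag1 was highest in mural cells in 4 of them, Hey1 in mural cells in 3 and in endothelium in 1, Hey2 in another class in 2, and Notch3 in posterior second heart field and foregut mesenchyme without library 5.

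Within the cardiomyocytes the Hey genes marked opposite chambers. Ventricular-like cells (1486, gated on Myl2, Myl3, Irx4, Mpped2 and Pln) had Hey2 levels of 27.0, 26.0, 35.3, 28.3, 29.7 and 33.3 CPM in libraries 1 to 6. Atrial-like cells (769) had 0.829, 0.384, 1.13, 0.432, 0.911 and 1.13 CPM, so every ventricular value lay above every atrial value. The summed ratio was 39.4 (interval 26.7 to 61.1), from 2334 UMIs against 25. Hey1 went the other way, with 35.5, 36.6, 34.5, 47.3, 50.1 and 42.1 CPM in atrial-like cells against 3.71, 4.49, 2.02, 4.37, 5.77 and 3.39 CPM in ventricular-like cells. Its atrial level was 10.3 times the ventricular one (interval 9.13 to 11.7), again without overlap. The Hey2 ratio was 16.3 after thinning to 5000 UMIs per cell and 63.2 with a wider lead between marker lists. The thinning was a single draw and left fewer than the 25 atrial-like Hey2 UMIs, so 16.3 is imprecise and does not measure an effect of depth.

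**Figure D3:**
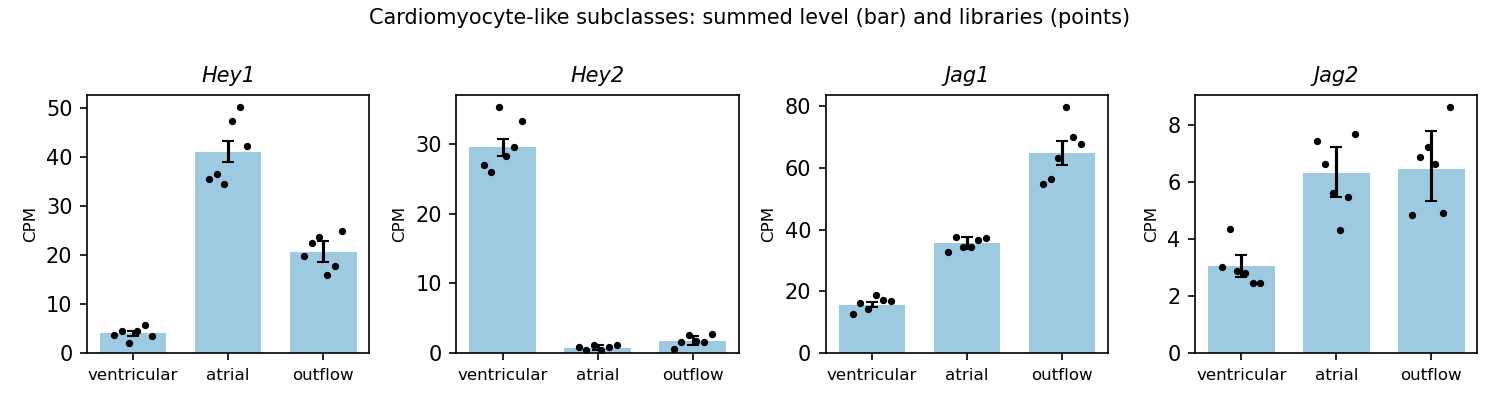
CPM of Hey1, Hey2, Jag1 and Jag2 in ventricular-like, atrial-like and outflow-like cardiomyocytes; bars show the summed level with its 95% counting interval and points show the 6 libraries. Hey2 stood at 29.6 CPM in ventricular-like cells and at 0.749 CPM in atrial-like cells, and Jag1 stood at 15.7, 35.6 and 64.8 CPM in ventricular-like, atrial-like and outflow-like cells.

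Jag1 was ordered across the same cells. It had 15.7 CPM in ventricular-like, 35.6 CPM in atrial-like and 64.8 CPM in outflow-like cardiomyocytes (507 cells). Outflow exceeded ventricular cells 4.14-fold (interval 3.81 to 4.49) and atrial exceeded ventricular cells 2.28-fold (2.10 to 2.47), each in 6 of 6 libraries. Jag2 was also higher in atrial-like (6.32 CPM) than in ventricular-like cells (3.04 CPM), in 6 of 6 libraries. Hey1 in outflow-like cells, at 20.6 CPM, lay between the chambers, and Hey2 there was at 1.68 CPM. Notch2 did not separate atrial from ventricular cells (14.3 and 14.0 CPM; ratio 1.02, interval 0.918 to 1.14). By the rule of 2 times and 10 CPM, Jag1 and Hey1 were higher in atrial-like cells, of 5 members tested, against 2.99% of 8462 genes. Hey2 was higher in ventricular-like cells, against 1.84%. Against outflow-like cells, Hey2 was again the member higher in the ventricular class, with 2.5% of genes called, and Jag1 and Hey1 were higher in outflow cells, with 8.93% called.

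Trabecular myocardium, the spongy inner layer of the ventricle, is marked by Nppa, Nppb, Bmp10, Cited1, Irx3 and Gja5, while Hey2 is known as a gene of the compact layer. Ventricular-like cells with at least 3 of the 6 markers on (421) had 32.8 CPM of Hey2, and those with at most 1 (736) had 23.1 CPM. The marker-high cells were the higher ones in 6 of 6 libraries, at 30.8 against 19.1, 31.7 against 18.8, 34.5 against 30.1, 32.1 against 23.8, 33.5 against 22.7 and 35.1 against 29.2 CPM. The relation was not a straight one. Hey2 stood at 14.3, 29.6, 35.7, 35.4, 30.7 and 22.0 CPM in cells with 0, 1, 2, 3, 4 and 5 markers on, and the group of 4 and the 37 cells of the group of 5 lay below the peak. The 4 cells with all 6 markers on are left out of this series. Median depth moved with the marker number, from 34642.5 UMIs at 0 markers to 68977 at 5. These groups were called at full depth, and the difference did not hold in all draws when they were called again at 10000 UMIs. Each ventricular-like cell was thinned to 10000 UMIs in 100 draws, which left a median of 110 marker-high and 1084 marker-low cells. The same marker cut is harder to reach at that depth, so depth and strictness of the groups changed together and were not separated. With Hey2 read at full depth in those groups, the median low over high ratio was 1.02 (0.894 to 1.23 over the draws), and marker-high cells were the higher ones in 40 of 100 draws. With Hey2 thinned too, the median ratio was 0.917 (0.642 to 1.68), from a median of 32 UMIs in marker-high cells. Marker-high cells were then the higher ones in 72 of 100 draws. In the full-depth groups the ratio was 0.704, and 0.612 after thinning the members alone to 5000 UMIs. In the full-depth groups Notch3 was lower in marker-high cells, at 8.90 against 14.8 CPM, and Jag2 was lower at 1.49 against 4.90 CPM, each in 6 of 6 libraries. Neither was read in the groups called again. No member reached a factor of 2 at 10 CPM, where 0.298% of 8399 genes were higher in marker-high and 4.49% in marker-low cells.

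**Figure D4:**
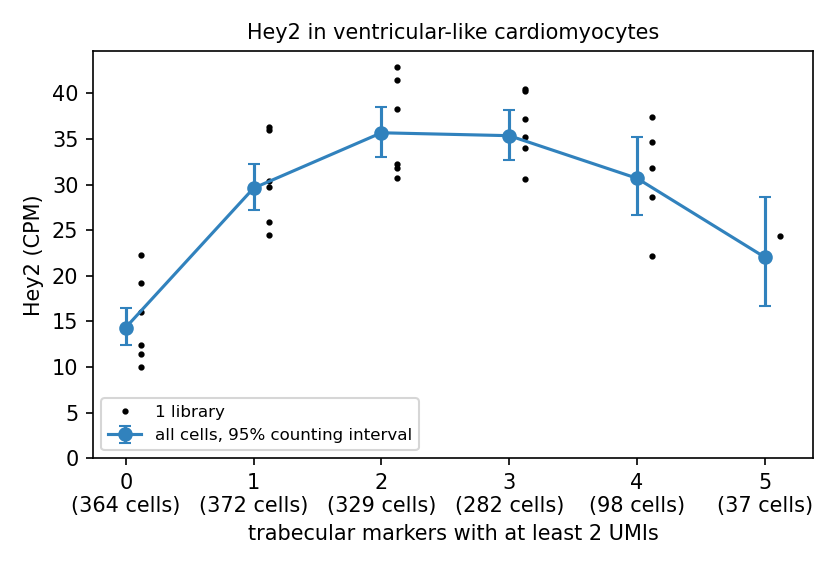
Hey2 in CPM in ventricular-like cardiomyocytes grouped by the number of trabecular markers with at least 2 UMIs at full depth; large points show all cells with 95% counting intervals and small points the libraries with at least 10 cells. The level was 14.3 CPM without a marker, 35.7 CPM with 2 and 22.0 CPM with 5.

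Endothelium was divided in the same way. Endocardial-like cells made up 1224 of the 1856 endothelial cells and vascular-like cells 363, of which 104 were artery-like and 226 vein-like. Notch1 was 1.36 times higher in endocardial-like than in vascular-like cells (97.9 against 72.1 CPM), in 6 of 6 libraries. This excess did not hold against artery-like cells, whose summed level was slightly higher (values below). Dll4 was higher in vascular-like cells, at 23.8 against 15.6 CPM (ratio 1.53), in 5 of 6 libraries, and the ratio was 1.91 without cells whose barcode sequence occurred in another library. The Dll4 excess held for artery-like cells, while vein-like cells lay below the endocardial-like level (values below). Notch2 (22.2 against 7.72 CPM), Notch3 (20.6 against 8.06 CPM) and Hey2 (16.7 against 3.98 CPM) were at least 2 times higher in endocardial-like cells, as were 5.92% of 8760 genes, and no member was so in the vascular direction, where 3.61% of genes were. The vascular-like Hey2 level pools unlike cells: it was 18.6 CPM in artery-like and 0.0793 CPM in vein-like cells. Artery-like cells were 1.12 times the endocardial-like level (interval 0.862 to 1.43), higher in 3 of 5 libraries. The endocardial excess in Hey2 thus did not hold against artery-like cells, which also held the endocardial marker Npr3 (values below).

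The arterial cells differed most. Dll4 stood at 84.7, 107, 69.7, 98.9 and 71.1 CPM in the artery-like cells of libraries 1, 2, 4, 5 and 6, and at 4.53, 4.46, 8.61, 3.98, 6.69 and 6.15 CPM in the vein-like cells of libraries 1 to 6. Library 3 had under 10 artery-like cells. No artery-like value came near a vein-like one, and the summed ratio was 15.6 (interval 11.99 to 20.5). Hey1 was at 177 CPM in artery-like cells, between 162 and 257 CPM over the libraries, and at 4.36 CPM in vein-like cells. Its ratio was 40.6 (interval 30.8 to 54.5). With a wider lead between marker lists the Hey1 ratio was 121, so its size depends on how the cells were gated.

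Hey2 gave 69 UMIs in artery-like and 1 UMI in vein-like cells, a ratio of 235 with a counting interval of 40.8 to 9419.7. The vein-like level of 0.0793 CPM lies below the erythroid background of 0.189 CPM for Hey2, so it is read as background and the ratio has no firm upper end. Jag2 (20.8 against 5.63 CPM) and Jag1 (17.3 against 6.26 CPM) were also higher in artery-like cells, in 5 of 5 libraries each. Notch1 was 1.65 times higher (103 against 62.8 CPM) and Dll1 was lower (2.16 against 7.61 CPM). Of 7 members tested, 5 (Dll4, Jag1, Jag2, Hey1 and Hey2) were at least 2 times higher in artery-like cells, against 4.89% of 8597 genes, and none was in vein-like cells, against 1.7%. Against endocardial-like cells, Dll4, Jag2 and Hey1 were at least 2 times higher in artery-like cells, as were 5.5% of 8859 genes, and Notch2 and Dll1 were so in endocardial-like cells, as were 5.36%. The artery gate rests on Gja4, Unc5b, Sox17, Gja5, Mecom, Cxcr4 and Nrp1. The endocardial marker Npr3 stood at 201 CPM in artery-like, 351 CPM in endocardial-like and 18.5 CPM in vein-like cells, and its part in the arterial values was not tested.

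**Figure D5:**
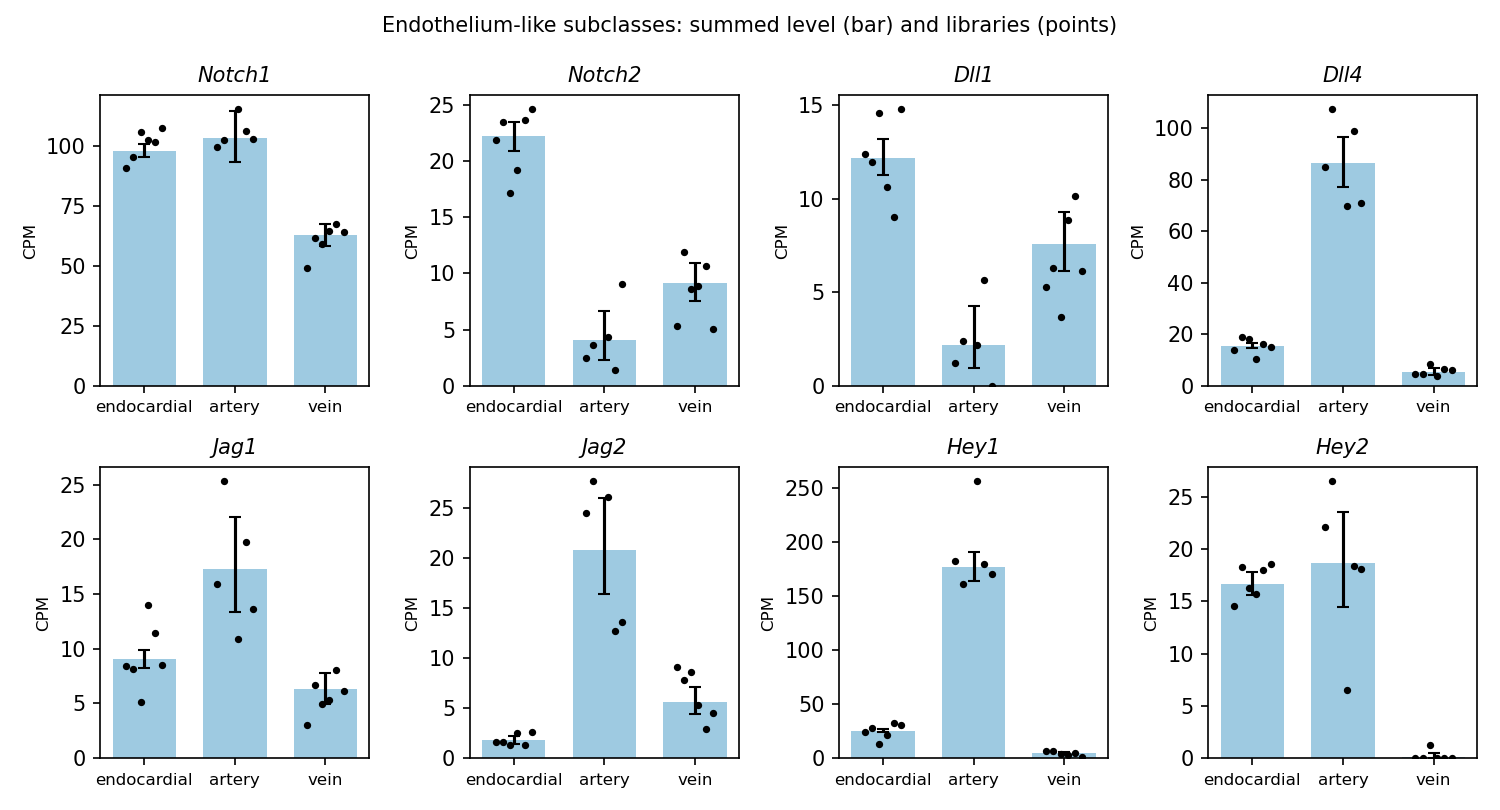
CPM of 8 members in endocardial-like, artery-like and vein-like endothelium; bars show the summed level with its 95% counting interval and points show libraries with at least 10 cells. Dll4, Jag2 and Hey1 were highest in artery-like cells, whereas Notch2 and Dll1 were highest in endocardial-like cells.

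Ligand and target were next compared within endocardium, where the gates do not separate artery from vein. Each cell was thinned to 10000 UMIs, and 167 endocardial-like cells with a Dll4 UMI were set beside 1055 without. Hey1 was at 54.5 CPM in the cells with Dll4 and at 23.8 CPM in those without (ratio 2.29, interval 1.78 to 2.92), higher in 5 of 6 libraries. Notch4 was 1.73 times higher (interval 1.15 to 2.55) and Nrarp, a Notch-induced feedback inhibitor, 1.44 times higher (interval 1.007 to 2.01), each in 5 of 6 libraries. The target Hes1 was 1.16 times higher (interval 0.974 to 1.38), in 4 of 6 libraries. Hey2 had 19.2 against 18.2 CPM (ratio 1.05, interval 0.700 to 1.54). Heyl had 1.80 against 4.45 CPM (ratio 0.403, interval 0.0803 to 1.25), from 3 UMIs against 47, and was higher with Dll4 in 1 of 6 libraries. Efnb2, a gene of arterial endothelium, was 1.22 times higher as well, and its part in the Hey1 value was not tested. The summed levels of Notch1, Notch2, Notch3, Dll1, Jag1 and Jag2 were also higher, at ratios of 1.13, 1.32, 1.31, 1.21, 1.08 and 1.58. Each of these intervals held 1, and each gene was higher in 2 to 4 of 6 libraries. The share of all genes higher in cells with Dll4 was not computed, so a general shift was not tested. For Hes1, Hey2 and Heyl the intervals also held 1. All intervals in this comparison rest on UMIs summed over cells, so variation among cells or libraries is left out of them. They therefore do not sort genes that differ from genes that do not. Nrarp, with a lower end of 1.007, was higher in 5 of 6 libraries and Hes1 in 4 of 6, so the libraries did not clearly set them apart.

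In crest mesenchyme, cells with at least 2 Hox markers on (2783, Hox-positive) were compared with cells without any on (1031, Hox-negative). Hox genes are known from crest behind the first arch. Median depth was 46388 UMIs in Hox-positive and 34543 UMIs in Hox-negative cells, and the groups were not called again at equal depth. Hey1 was higher in Hox-positive cells, at 25.1 against 11.4 CPM (ratio 2.20), in 6 of 6 libraries, and was the only one of 5 members tested to pass the rule, against 0.998% of 8421 genes. Notch1 (11.6 against 5.96 CPM) and Heyl (3.07 against 0.738 CPM) were higher in 6 of 6 libraries as well. Notch2 and Notch3 were nearly level between them, with ratios of 1.12 and 1.03. No member was at least 2 times higher in Hox-negative cells, where 0.416% of genes were.

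Cells with Myf5 or Myod1 on (365), which are determination genes of skeletal muscle, were set beside anterior second heart field and pharyngeal mesoderm. The groups share 235 cells, so the values are not independent, and the cells outside the overlap were not compared on their own. Heyl had 7.93 against 6.13 CPM and was higher in 5 of 6 libraries. Jag1 had 29.3 against 41.6 CPM and was lower in 5 of 6 libraries. Neither passed the factor of 2, which 0.787% of 8895 genes passed in the Myf5- or Myod1-positive direction and 2.17% in the other.

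The rest of the pathway was read from a list of 44 genes, of which 43 were measured and 31 reached 10 CPM in a class. Of these 31, 6 were highest in endothelium and 8 in neurons, against 6.93% and 12.1% of all genes. In all, 8 of the 31 were at least 4 times their level over the other described classes, a share near the 25.5% of all genes and so no result about the pathway list. The 8 are named as a description. In endothelium these were Notch4, the endothelial receptor, at 17.8 CPM, Nrarp at 24.8 CPM and Psen2, a gamma-secretase subunit, at 25.8 CPM. Psen2 was next highest in myeloid and megakaryocyte cells, at 24.1 CPM. In neurons they were Dll3 (51.9 CPM), a ligand that acts inside the cell, Mfng (136 CPM), a Fringe glycosyltransferase that modifies Notch, Numbl (33.4 CPM) and the neurogenic repressor Hes6 (344 CPM). Dtx4 was at 25.2 CPM in crest and glia cells. Notch4 followed the arterial pattern, at 57.3 CPM in artery-like and 17.4 CPM in vein-like cells, and so did Nrarp, at 60.2 and 24.0 CPM.

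Rbpj, the DNA-binding partner of Notch, was highest in neurons at 105.01 CPM, which was 1.89 times the rest. Surface ectoderm came close behind at 99.6 CPM. Hes1, another classical target, was highest in mural cells at 96.4 CPM, or 1.79 times the rest, with surface ectoderm nearly level at 94.2 CPM. In cardiomyocytes Hes1 was at 20.2 CPM in ventricular-like, 8.69 CPM in atrial-like and 62.3 CPM in outflow-like cells, an order unlike those of Hey1 and Hey2. Lfng, the Fringe that favours Delta-like ligands, was highest in epicardium and mesothelium at 9.001 CPM (9.71 times the rest), in 6 of 6 libraries.

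The genes whose pattern over the 15 classes was most like each member were named by Pearson's r of log2(CPM + 10), as a description over 9551 genes. Dll4 was closest to Cldn5, Kcne3 and Adgrf5, with r of 0.992, 0.992 and 0.991, all 3 highest in endothelium. Notch1 was closest to Fgd5 (0.924), and Hey2 to Mical2 (0.952). Jag2 was closest to Gm32585 (0.945) and Foxi2 (0.935), and Heyl to Luzp2 (0.871). Hey1 had no gene above 0.818 (Acd). The classes share libraries and differ in depth, and r carries no test here.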

How the data were processed

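Barcodes, genes and 1 matrix of raw UMI counts for all libraries were deposited by the authors, and per the file headers Cell Ranger 5.0.0 made them. Per the submitters' processing notes, CASAVA 1.8, Cell Ranger 5.0.0 and Seurat 4 were used with the build mm10. How cells were called was not stated in the labels or headers. The number at the end of a barcode (1 to 6) was read as the library.

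The 10 genes, marker lists and pathway list were chosen with earlier results of these data known, and the gate was set after its effect was seen. A marker was on with at least 2 UMIs. A cell joined the list of 18 with the largest share of markers on, if that share was at least 0.5 and led the next by at least 0.1 (subclasses 0.3 and 0.1). Of the classified cells, 2422 led by less than 0.2. In place of a doublet caller, 452 cells that passed 2 unrelated lists were left out, so doublets within related types stay. Branchiomeric muscle, hepatocyte and neural progenitor lists caught 36 cells in all and are not described. Library values needed at least 10 cells of a class.

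CPM is the sum of a gene's UMIs over the sum of all UMIs of the class. Intervals of levels are exact Poisson and those of ratios come from the exact binomial, both at 95%. Cells were thinned without replacement, and those with fewer UMIs than the target were left out. Classes stayed as called at full depth, except where trabecular groups were called again. All 10 members are named. Other pathway genes are named with at least 10 CPM in their highest class and at least 4 times the rest, and Notch4, Hes1, Lfng and Rbpj in any case. Of the 44 pathway genes 43 were measured, and Hes4 was not analysed here. The 3 genes most like each member were taken among those with at least 20 CPM in a class that are no gate marker. The count procedure was run on simulated Poisson counts of class sums, the model that its intervals assume. The simulation held no spread between cells or libraries and no gating, so it checks the arithmetic only. Python 3.11.15, numpy 2.4.6, pandas 2.3.3, scipy 1.17.1 and matplotlib 3.10.9 were used. The planned edgeR comparison of streptozotocin with vehicle was not run, since no file used here pairs libraries with samples. Alternatives for filter, gate, depth, shared barcodes and left-out libraries were recomputed.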

Additional observations from a re-analysis of the deposited data

Results flagged for a closer look

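The 17400 barcodes that did not pass the filter held RNA of all 10 genes, above the 0.0613 CPM that 3 counts would give. The receptors stood at 8.21 CPM for Notch1, 23.7 CPM for Notch2 and 22.0 CPM for Notch3. Among the ligands, Jag1 was at 17.3 CPM, Jag2 at 3.29 CPM, Dll4 at 1.35 CPM and Dll1 at 1.04 CPM. The targets were at 21.7 CPM for Hey1, 3.45 CPM for Hey2 and 1.92 CPM for Heyl. These barcodes belong to no class, and no comparison above uses them. Because libraries could not be assigned to samples, no outlier within a group and no difference between groups was looked for.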

How the results depend on the processing

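No paired analysis was possible because no file used here pairs a library with a sample, and the planned comparison of streptozotocin with vehicle was not run for the same reason. Over 14 results and 16 alternatives (the last 2 for Hey2 in trabecular groups only), 165 of 198 values stayed within the 95% counting interval of the reported ratio (for counts of members, within 1.5 times the reported count), 32 moved beyond it and 1 changed direction. Most alternatives reuse largely the same cells, so agreement was favoured in advance and the count is no measure of replication. Trabecular groups were called again in 100 draws of 10000 UMIs. The median ratio of Hey2 in trabecular-low over -high cells was then 1.02 with Hey2 at full depth, which is the change of direction. It was 0.917 with Hey2 thinned too. The reported difference thus depends on how the groups were called, and depth and strictness changed together. The highest class of a member is not among these values, and it changed under at least 1 alternative for 4 of 10 members (Notch3, Jag1, Hey1 and Hey2). The wider lead of 0.2, the groups called again and the results for Hey1 in arteries, Jag2, Heyl and outflow Jag1 were added after seeing the data. Thinned to 5000 UMIs, the count of members highest in endothelium was 4 in place of 2, Hey2 was 16.3 times higher in ventricular than atrial cells, Hey1 8.07 times higher in atrial cells, Hey2 in trabecular-low over -high cells 0.612, Dll4 in vascular over endocardial cells 1.81 and Dll1 in neurons over the rest 14.7. With the lead of 0.2 the members leading in every library numbered 6, and those ratios were 63.2, 14.1, 0.836 and 1.31, with 1.45 for Notch1 in endocardial over vascular cells and 2.36 for mural Notch3. Without the 10% deepest cells they were 9.08 (Hey1), 0.516 (Hey2 low over high), 1.996 (Dll4) and 1.66 (Notch3). The stricter gate gave 0.830, 2.52 and 8.72 for Hey2 low over high, Notch3 and Dll1, and the looser one 15.8 for Dll1. Without shared barcode sequences Dll4 was 1.91 and Dll1 13.9, and the library median of Dll1 was 8.98. Leaving out 1 library at a time, the count leading in every library ranged from 3 to 6, with 6 without library 4. The cause of the shifts was not tested. The Hey2 levels come from 25 UMIs in atrial-like cells and 1 UMI in vein-like cells before thinning. The values thinned to 5000 UMIs come from a single draw.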
